A study of Mus musculus with 148 samples.

Results

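Fc gamma receptors bind the constant part of IgG antibodies on the surface of white blood cells, and 5 genes of this system were followed here: Fcgr1, Fcgr3 and Fcgr4, which encode the activating receptors of the mouse, Fcgr2b, which encodes the inhibitory receptor, and Fcer1g, which encodes the signaling chain that the activating receptors share. They were 5 of the 52634 gene rows of the deposited count tables and were chosen from their levels across the cell labels, so those levels are a description and were not tested. Fcgr1 binds single IgG molecules with high affinity, whereas Fcgr3 and Fcgr4 mainly bind IgG in immune complexes. The activating receptors need the chain encoded by Fcer1g to reach the surface and signal through its activation motif, while Fcgr2b carries an inhibitory motif in its own tail that recruits the phosphatase encoded by Inpp5d. The balance of both sets the threshold at which an antibody-coated target triggers phagocytosis or killing.

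Cells were taken from female PA-GFP C57BL/6 mice, which carry a photoactivatable GFP so that cells of a chosen tissue region can be marked by light and sorted. Tumor-bearing mice had received EO771-tdTomato cells, a mouse breast cancer line with a red reporter, in a mammary gland at 8 weeks of age, and the primary tumor was resected after 3 weeks in the mice followed for lung metastasis. The 63 samples of 27 mice were 3 Normal lungs of PA-GFP mice, 3 Pre-MET lungs of mice that still bore the tumor, 6 Relapse-free lungs in which no metastasis appeared, 14 samples of Distal normal tissue and 13 of MET (sections of metastasis-bearing lungs without and with a lesion), 13 of MET Core and 7 of MET Invasive margin (photoactivated regions), and 4 Primary tumors. Most photoactivated samples were gated as CD31-negative and GFP-positive without a CD45 gate, and the other tissues as CD31-negative and CD45-positive, apart from plates of the Relapse-free mice 6 and 7 that were sorted by GFP and summed with the rest of each mouse, so that MET Core and Primary also differed in their gate. The margin sample of mouse 17 came from plates whose photoactivation target reads NON-MET.

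Each of the 148 plates gave UMI counts (each captured mRNA molecule counted once, at its 3′ end) per gene and well, and the authors' cell labels were used as deposited. Counts were summed per mouse, tissue and label wherever there were at least 10 cells, and expressed as CPM (counts scaled to 1000000 UMIs per sum), which gave 331 sums of 18 monocyte (Mon_), macrophage (Mac_), dendritic cell (DC_), neutrophil (Neut_) and natural killer cell (NK_) labels, from 13525 of the 15524 cells with such labels. Plasmacytoid dendritic cells, with 73 cells and at most 9 in a sample, gave no sum. A sum held 10 to 390 cells and 5720 to 731354 UMIs, so that 1 UMI stood for 22.1 CPM in the median sum and 175 CPM in the smallest. Tissues differed in depth, with a median of 3525 UMIs per cell in Primary and 812 to 1201 in the other tissues. No well identifier was shared between plates, and plates came from 12 sequencing batches. Of the markers checked, Ace and Nr4a1 were highest in Mon_Ace, Chil3 and Car4 in Mac_Cd9, Cd209a in DC_cDC2 and Ncr1 in NK_Ncr1. Of the macrophage markers, C1qa, C1qb and Adgre1 were highest in Mac_Cd81, Apoe in Mac_Gpnmb and Mrc1 in Mac_Cd9. Siglech, of plasmacytoid dendritic cells, reached at most 4.15 CPM in any label, and the tumor marker Epcam was highest in DC_cDC1 (174 CPM). Neut_PMN-MDSC held 1 sum that went against its label. That of the relapse-free mouse 7 held 29 of the 38 UMIs of Fcer1a, the IgE receptor chain of mast cells and basophils, found in these labels, and its 5 neutrophil markers summed to 1787 CPM against 16768 to 28639 CPM in the other 4 sums of that label. Values of Neut_PMN-MDSC are therefore given with and without it.

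In mm10 (GENCODE vM21), Fcgr2b (chr1:170958617-170976547, minus strand), Fcgr4 (chr1:171018920-171029761, plus strand), Fcgr3 (chr1:171051174-171064935, minus strand) and Fcer1g (chr1:171229572-171234365, minus strand) lay within 276 kb of chromosome 1, and Fcgr1 on chromosome 3 (chr3:96282909-96293969, minus strand). Fcgr1 and Fcgr4, the activating receptors called between tissues without a mouse block, are shown because their windows held interferon-type motifs, with the 250 bases before their RefSeq start sites (GRCm38.p6, chr3:96293970-96294219, minus strand, for Fcgr1 and chr1:171018676-171018925, plus strand, for Fcgr4). Capitals mark matches to an interferon-gamma activated site (GAS, searched as TTCNNNGAA), an interferon-stimulated response element (ISRE, searched as GAAANNGAAA) and the core site of the myeloid factor PU.1 (searched as GAGGAA), each on both strands.
Fcgr1: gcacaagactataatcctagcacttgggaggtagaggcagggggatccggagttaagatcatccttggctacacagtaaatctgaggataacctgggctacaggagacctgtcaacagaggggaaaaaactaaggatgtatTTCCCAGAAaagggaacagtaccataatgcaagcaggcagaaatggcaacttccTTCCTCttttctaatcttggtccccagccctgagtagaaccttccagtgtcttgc
Fcgr4: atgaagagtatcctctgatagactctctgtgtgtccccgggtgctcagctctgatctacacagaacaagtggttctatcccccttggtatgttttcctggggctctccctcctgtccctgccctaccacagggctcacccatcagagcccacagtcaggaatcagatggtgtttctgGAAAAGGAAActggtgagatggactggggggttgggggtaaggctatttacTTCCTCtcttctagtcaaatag
Fcgr1 held a GAS match at -109 and a PU.1 match at -55, and Fcgr4 an ISRE match at -73 and a PU.1 match at -22, counted from the start site, and these matches did not overlap. In the 250 bases before the start, the GAS letters occurred in 7.02%, the ISRE letters in 2.977% and the PU.1 letters in 23.25% of 32851 RefSeq promoters. Both Fcgr3 windows held a PU.1 match only, at -15 and -6 from their 2 annotated starts, and those of Fcgr2b and Fcer1g held none of these letters. A match is a description of the letters and was not tested as a binding site. Fcgr2b and Fcgr3 are close paralogs, and 14.98% of the 40-base stretches of the longest Fcgr3 transcript also occurred in Fcgr2b. None of those in its last 500 bases did, where 3′ counting takes place, and the authors excluded reads with several mapping positions.

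**Figure D1:**
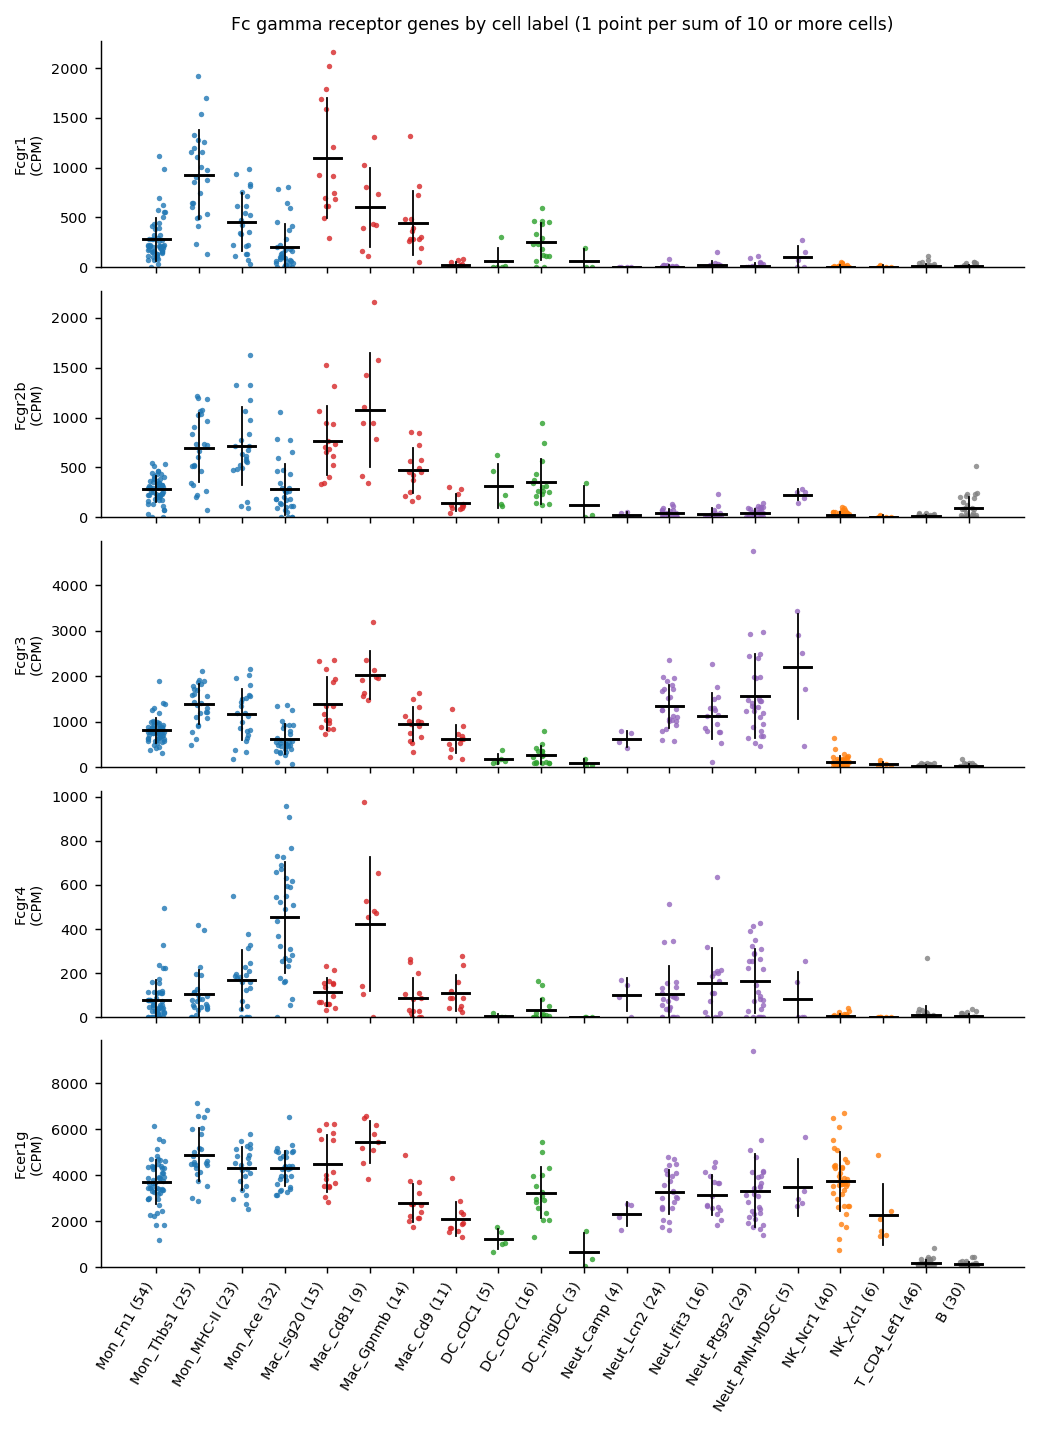
CPM (linear axis) of the 5 genes in each sum of at least 10 cells, by cell label with the number of sums in brackets; horizontal bars are means and vertical bars SD, and T_CD4_Lef1 and B are shown for background. Fcgr1 was highest in Mac_Isg20 (1096 CPM) and Fcgr2b in Mac_Cd81 (1079 CPM, and 688 CPM without Primary, below Mac_Isg20 at 769.9 CPM), both at most 18.9 and 42.4 CPM in NK and neutrophil labels other than Neut_PMN-MDSC, Fcgr3 extended to neutrophils, Fcgr4 was highest in Mon_Ace (454 CPM) and Mac_Cd81 (423 CPM, and 234 CPM without Primary), and Fcer1g was high in nearly all of these labels.

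Fcer1g, the shared chain, was the most abundant of the 5, with 127371 UMIs in all immune cells and 97.8% of them in the labels studied. Its mean level was highest in Mac_Cd81, the C1q-rich macrophages, at 5463 ± 913 CPM (SD, n = 9 sums), and reached 3711 to 4892 CPM in the 4 monocyte labels. That first place rested on the 4 Primary sums of the label. Without Primary it held 4967 ± 871 CPM (n = 5) and Mon_Thbs1 4986 ± 1157 CPM (n = 21). NK_Ncr1 cells, in which the chain also serves the receptor encoded by Ncr1, held 3737 ± 1284 CPM (n = 40), and their sums ran from 745 through a median of 3650.2 to 6727 CPM. It was lowest in conventional type 1 and migratory dendritic cells, at 1206 ± 434 CPM (n = 5) and 656 ± 806 CPM (n = 3). Along the order of label means, only the step from Mac_Cd9 (2095 ± 749 CPM, n = 11), the alveolar macrophages, to DC_cDC1 exceeded the larger SD of the neighbours. Neut_PMN-MDSC held 3478 ± 1249 CPM with the sum of mouse 7 and 3524 ± 1437 CPM without it. Naive CD4 T cells (T_CD4_Lef1, 46 sums), which should lack these receptors, held 155 ± 159 CPM, and B cells 116 CPM.

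Fcgr1, the high-affinity receptor and a marker of macrophages and monocyte-derived cells, was highest in Mac_Isg20 macrophages, at 1096 ± 602 CPM (n = 15, from 289.9 through a median of 916 to 2164), and in Mon_Thbs1 monocytes, at 929.8 ± 445 CPM (n = 25, from 134 through 905 to 1920). Both labels lay above the others in mean, although their ranges overlapped those of Mac_Cd81 (602 ± 399 CPM, n = 9, and 307 ± 156 CPM without its 4 Primary sums), Mon_MHC-II (454 ± 292 CPM, n = 23) and Mac_Gpnmb (447 ± 322 CPM, n = 14). Mon_Fn1, the most frequent monocyte label, held 279.5 ± 218 CPM (n = 54) and Mon_Ace, the patrolling type, 202.5 ± 228 CPM (n = 32). Among dendritic cells, DC_cDC2 held 256 ± 185 CPM (n = 16), whereas 3 of the 5 DC_cDC1 sums were at 0. Macrophages of the alveolar label Mac_Cd9 differed from the other macrophages, with 23.7 ± 32.3 CPM and 6 of 11 sums at 0. Neut_PMN-MDSC held 101 ± 118 CPM with the sum of mouse 7 and 126 ± 119 CPM without it. The other neutrophil and NK labels lay between 0 and 18.9 CPM, beside 9.3 ± 21.5 CPM in T_CD4_Lef1 cells, and no UMI was seen in Neut_Camp, which allows up to 25.3 CPM (3 UMIs over all sums of the label, counting error only).

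Fcgr3, an activating receptor for immune complexes, was the receptor gene spread most widely over the myeloid labels, with 32568 UMIs. Its mean was highest in Neut_PMN-MDSC, with sums of 1719, 3439, 2904, 2504 and 470 CPM, the last from the sum with Fcer1a. The mean was 2207 ± 1156 CPM with it (n = 5) and 2642 ± 724 CPM without it (n = 4). Mac_Cd81 followed at 2026 ± 524 CPM (n = 9), and Neut_Ptgs2 neutrophils held 1573 ± 922 CPM (n = 29, from 456 through a median of 1353 to 4747). The other monocyte, macrophage and neutrophil labels held 609 to 1393 CPM. Neutrophil labels were thus spread among the monocyte and macrophage labels, from Neut_Camp, at 629 ± 175 CPM (n = 4), upward, whereas the means of Fcgr1 and Fcgr2b in neutrophils outside Neut_PMN-MDSC lay below those of every monocyte and macrophage label. The step from Mac_Cd9, at 609 ± 309 CPM (n = 11), down to DC_cDC2, at 265 ± 195 CPM (n = 16), was the only one larger than the SD of both neighbours. NK_Ncr1 cells, in which Fcgr3 is the receptor for antibody-dependent killing, held 119 ± 124 CPM (n = 40, from 0 through 88.5 to 631), 8 of their sums at 0, against 21.1 ± 28.4 CPM in T_CD4_Lef1 cells.

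Fcgr4, the activating receptor typical of patrolling monocytes, was the rarest, with 5368 UMIs. Mon_Ace held 454 ± 252 CPM (n = 32, from 0 through a median of 501 to 959) and Mac_Cd81 423 ± 304 CPM (n = 9, from 0 through 472 to 978). Without Primary, Mac_Cd81 held 234 ± 215 CPM (n = 5) and Mon_Ace 466.3 ± 255 CPM (n = 30). These labels did not differ beyond their spread, and over all sums both stood above the rest in mean, the next being Mon_MHC-II at 169.9 ± 136 CPM (n = 23) and Neut_Ptgs2 at 163 ± 146 CPM (n = 29). The remaining monocyte, macrophage and neutrophil labels lay between 75.8 and 154 CPM, Neut_PMN-MDSC among them at 83.5 ± 119 CPM with the sum of mouse 7 and 104 ± 127 CPM without it. Sums of DC_cDC1 and NK_Ncr1 were near 0 (4.1 CPM each), as in T_CD4_Lef1 cells (mean 10.1 CPM), and no UMI was seen in DC_migDC or NK_Xcl1, which allows up to 13.5 and 14.5 CPM.

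Fcgr2b, the inhibitory receptor, was highest in Mac_Cd81, at 1079 ± 575 CPM (n = 9, from 340.0 through a median of 951 to 2163), but 4 of these sums came from Primary. Without them Mac_Cd81 held 688 ± 291 CPM (n = 5), below Mac_Isg20, which had no Primary sum. Over all sums, Mac_Isg20 (769.9 ± 342 CPM, n = 15), Mon_MHC-II (718 ± 391 CPM, n = 23) and Mon_Thbs1 (697 ± 347 CPM, n = 25) followed without a gap beyond their spread. Unlike Fcgr1, it was present in all 5 sums of DC_cDC1, at 311 ± 224 CPM, and DC_cDC2 held 354 ± 226 CPM (n = 16). Neutrophil labels held 22.5 to 42.4 CPM apart from Neut_PMN-MDSC (225 ± 56.1 CPM with the sum of mouse 7 and 234 ± 60.3 CPM without it), and NK labels 6.8 to 23.3 CPM. B cells, for which it is the main Fc receptor, held 90.4 ± 116 CPM (n = 30), and T_CD4_Lef1 cells 7.5 ± 11.9 CPM.

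The log2 ratio of the UMIs of Fcgr1, Fcgr3 and Fcgr4 to those of Fcgr2b (1 UMI added to each side) had its highest means in neutrophils, at 4.49 ± 1.21 in Neut_Lcn2, 4.41 ± 1.28 in Neut_Ptgs2, 4.18 ± 1.36 in Neut_Ifit3 and 3.46 ± 0.36 in Neut_Camp. In Neut_PMN-MDSC it was 2.87 ± 1.12 with the sum of mouse 7 and 3.34 ± 0.46 without it, within the SD of Neut_Camp. Monocytes and macrophages lay between 1.40 ± 1.00 in Mon_MHC-II and 2.41 ± 1.31 in Mon_Ace, and their SD overlapped throughout. The SD of Mon_Ace also overlapped those of all 5 neutrophil labels, and the SD of Mon_Fn1 (2.05 ± 0.92) and Mac_Cd9 (2.20 ± 0.80) overlapped that of Neut_Ifit3. With the sum of mouse 7, the SD of Neut_PMN-MDSC overlapped those of all 8 monocyte and macrophage labels. Conventional dendritic cells had the lowest mean ratios, at 0.61 ± 0.69 in DC_cDC2 and -0.28 ± 1.75 in DC_cDC1, and both SD overlapped that of Mon_MHC-II. In the mean, Fcgr2b thus made up a larger part of their Fc receptor transcripts. DC_cDC1 differed by tissue, at 1.58 in 1 MET Core and 1.46 in 1 margin sum. It was at -1.78 in 1 Normal sum and -1.33 ± 1.11 in 2 Relapse-free sums. Within Mac_Gpnmb, the 4 margin sums had a ratio of 0.90 ± 0.27, against 2.05 ± 0.81 in 7 MET and 1.87 ± 0.81 in 3 MET Core sums. These ratios were not tested.

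Across the 18 labels, the gene most like Fcgr1 in mean log2(CPM + 10) was Ms4a6d, at Pearson r = 0.98, and Fcgr2b reached 0.94, among 8087 genes with at least 50 CPM in 1 label. Fcgr2b was in turn most like Ms4a6d (r = 0.95), Cmtm3 and Fcgr1 (0.94 each). Fcgr3 was most like Cd14, the endotoxin co-receptor, at 0.93, and Igsf6 and Plaur, the urokinase receptor, at 0.90 each. Fcgr4 was most like Dok3 (0.89), Sirpb1c and Pilrb2 (0.88 each), and Fcer1g was most like Gm20559 (0.91), Derl1 and Tpst2 (0.85 each). Fcgr3 and Fcgr4 correlated at 0.87, while the 8 remaining pairs of the 5 genes reached 0.31 to 0.68. Among these, Fcgr2b, which lies near Fcgr3 and Fcgr4 on chromosome 1, reached 0.44 and 0.40 with them. The labels share mice and plates and were defined on the expression of these cells, so these values describe the labels and carry no test.

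Differences between tissues were tested on sums with edgeR (quasi-likelihood F test, Benjamini-Hochberg adjustment over all genes tested, calls at an adjusted p below 0.05), in 18 comparisons within a label and 16 within a lineage, whose labels were then summed. In sorted cells a lower level of a lineage can come from less RNA per cell or from fewer cells of a label, which a lineage sum cannot tell apart, so label shares are given beside it. Within labels, 2 of 55 tests on the 5 genes were called, both in Mac_Cd81 of MET Core against Primary. Within lineages, 4 of 50 were called. Of all genes tested, the share called was 1.48% in monocytes of MET against Distal normal tissue, 4.32% in monocytes of Pre-MET against Normal, 8.25% in Mac_Cd81 and 4.53% in macrophages of MET Core against Primary.

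The largest set of paired samples asked how monocytes within a lung section that held a lesion differed from those of a lesion-free section. Fcgr1 rose in monocytes of MET, from 41.7 through a median of 188 to 275 CPM in 14 Distal normal tissue sums to 112 through 510.4 to 743 CPM in 13 MET sums. The groups overlapped through low MET sums, and MET was higher in 12 of the 13 mice with both tissues, the exception being mouse 27 (112 against 179.9 CPM). The means were 447 ± 186 and 177 ± 64.6 CPM, a log2 fold change of 1.36 ± 0.24 (SE, edgeR adjusted p = 0.00066). MET was also higher in each of the 3 sequencing batches that held both tissues (481 against 161, 409 against 176 and 504 against 188 CPM). Every marker list of another cell type overlapped between the groups (neutrophil markers 180.1 to 5345 CPM in MET and 249.5 to 4832 CPM in Distal normal tissue), and none of its genes was called.

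When each mouse was made a block, so that both sections of the same animal were compared, 3.1% of genes were called in monocytes and 3 of the 5 genes rose. Fcgr1 rose by 1.37 ± 0.22 (edgeR adjusted p = 2.68e-06). Fcgr2b rose by 0.85 ± 0.20 (edgeR adjusted p = 0.0035), from 243 to 395 CPM and in 12 of 13 mice. Fcgr3 rose by 0.60 ± 0.16 (edgeR adjusted p = 0.014), from 614 to 917 CPM and in 11 of 13 mice. Without the block the latter 2 differences were 0.68 ± 0.26 and 0.52 ± 0.17, at an edgeR adjusted p of 0.27 and 0.147, and Fcgr4 (142 against 111 CPM) and Fcer1g (3976 against 3453 CPM) were called in neither fit. The call of Fcgr3 was lost without mouse 26 (edgeR adjusted p = 0.068).

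**Figure D2:**
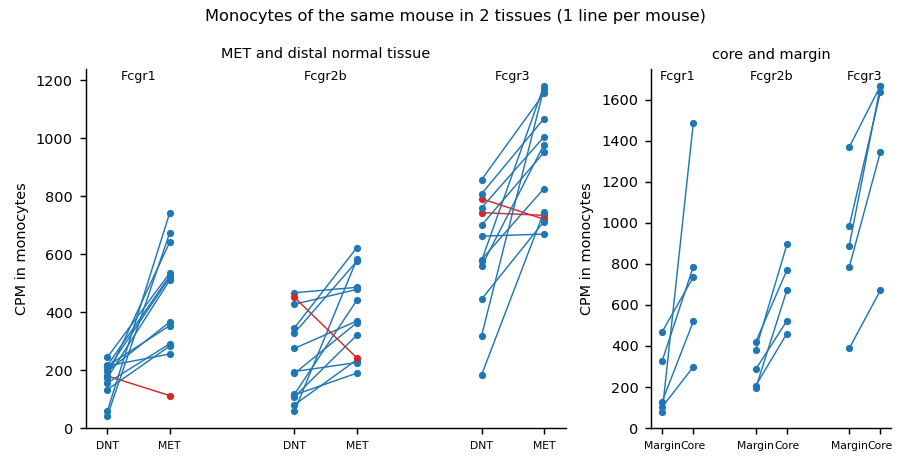
CPM (linear axis) of Fcgr1, Fcgr2b and Fcgr3 in the summed monocytes of mice with both tissues, 1 line per mouse, blue where the second tissue was higher and red where it was lower; left, Distal normal tissue (DNT) and MET in 13 mice, right, invasive margin and core in 5 mice. Fcgr1 was higher in MET in 12 of 13 mice and in the core in 5 of 5.

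The mix of monocyte labels differed between the same tissues. Mon_Thbs1, the monocyte label with the most Fcgr1, made up a mean of 5.28% of monocytes in Distal normal tissue and 25.5% in MET, and Mon_Fn1 68.8% and 51.4%. Levels were also computed with every label held at its overall mean and weighted by its share of the monocyte UMIs rather than of cells. This gave 319 CPM of Fcgr1 in Distal normal tissue and 470.0 CPM in MET, against 177 and 447 CPM measured. Within Mon_Fn1, the only monocyte label besides Mon_Ace with enough sums for this comparison, Fcgr1 was 251 ± 128 CPM in 13 MET sums and 162 ± 54.6 CPM in 13 Distal normal tissue sums, a log2 difference of 0.56 ± 0.27 that was not called (edgeR adjusted p = 0.9995, in a comparison with 0.0% of genes called). In the 12 mice with Mon_Fn1 sums of both tissues, Fcgr1 was higher in MET in 7 and lower in 5 (means 235 and 158 CPM). Sums of Mon_Thbs1 were 10 of MET, 8 of MET Core, 4 of Primary and 1 each of Distal normal tissue, margin and Relapse-free. The computed values thus partly hold tissue levels and are not an effect of shares alone. The parts of label shares and of levels within labels in the difference of summed monocytes were not tested.

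**Figure D3:**
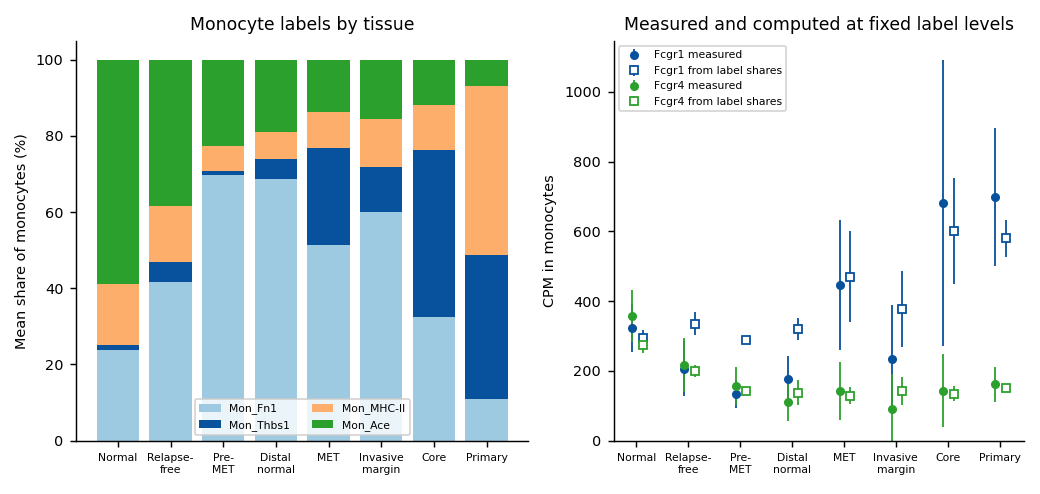
Left, mean share (%) of the 4 labels among the monocyte cells of each tissue, stacked. Right, CPM of Fcgr1 (blue) and Fcgr4 (green) in the summed monocytes, with means and SD over samples. Filled marks were measured. Open marks were computed from each label's share of the monocyte UMIs, with every label at its overall mean. The computed Fcgr1 level of Distal normal tissue (319 CPM) and Pre-MET (289 CPM) lay above the measured one (177 and 132 CPM).

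In monocytes of the core and the margin of a lesion, Fcgr1 showed 144 through a median of 736 to 1488 CPM in 13 MET Core sums and 77.5 through 211 to 469 CPM in 6 margin sums. The core reached far higher but its lowest sums overlapped the margin. The difference of 1.48 ± 0.45 was not called without the block (681 ± 411 against 233 ± 155 CPM, edgeR adjusted p = 0.21), in a comparison with 0.0% of genes called. Within the 5 mice with both tissues, 3.22% of genes were called and Fcgr1 rose toward the core by 1.71 ± 0.36 (edgeR adjusted p = 0.0129), higher in 5 of 5 mice (787, 520, 1488, 298 and 736 CPM in the core against 327, 129, 77.5, 102 and 469 CPM in the margin). Fcgr2b rose by 1.18 ± 0.26 (edgeR adjusted p = 0.0155), from 297 to 663 CPM and likewise in 5 of 5 mice. Fcgr3 was likewise higher in the core in 5 of 5 mice but was not called (0.72 ± 0.21, edgeR adjusted p = 0.072), nor were Fcgr4 (133 against 108 CPM, adjusted p = 0.72) and Fcer1g (4741 against 3921 CPM, adjusted p = 0.51). The calls of Fcgr1 and Fcgr2b were lost without mouse 17 (edgeR adjusted p = 0.066 for Fcgr1 and 0.067 for Fcgr2b) or mouse 26 (0.064 and 0.102). In the 4 batches with both tissues, Fcgr1 was higher in the core in 3 and not in the other (439.8 against 469 CPM). Mon_Thbs1 made up 43.7% of monocytes in the core and 11.7% in the margin. Within Mon_Fn1, Fcgr1 (means 613 and 182 CPM) and Fcgr2b (431 and 252 CPM) were higher in the core in 3 of 3 mice. Fcgr3, Fcgr4 and Fcer1g were higher there in 2 of 3. The parts of label shares and of levels within labels were not tested.

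Macrophages of MET held Fcgr1 where those of Distal normal tissue hardly did, with 1 exception. In the 5 mice with both tissues, MET held 586, 645, 759, 277 and 624 CPM, and Distal normal tissue 0, 0, 35.3, 0 and 0 CPM. All MET sums were higher, and the Distal normal tissue sums held 1 UMI of Fcgr1 in all, which gives a ratio of 60.6 with a wide counting interval (10.8 to 2400, exact 95%). In the fit blocked by mouse, Fcgr1 passed the test (edgeR adjusted p = 6.23e-08), as did 12% of all genes tested, and Fcgr3 rose by 1.11 ± 0.39 (edgeR adjusted p = 0.043), a call kept without mouse 28 or 30 and lost without mouse 23, 26 or 33. Without the block, where 9.54% of genes were called, Fcgr1 was not (1.56 ± 0.72, edgeR adjusted p = 0.19): the Distal normal tissue sum of mouse 17, which had no MET sum, held 1106 CPM, and without it the difference was called (edgeR adjusted p = 0.000315). Distal normal macrophages were 63.6% Mac_Cd9, the label with hardly any Fcgr1, while those of MET were 39.2% Mac_Isg20 and 33.5% Mac_Gpnmb. Mac_Isg20 had sums of MET and MET Core only, and Mac_Cd9 had 1 of MET, so label and tissue cannot be told apart in these levels. Between MET Core and margin, macrophage Fcgr1 was 875 ± 488 CPM (n = 10) against 252 ± 162 CPM (n = 4), a difference of 1.72 ± 0.53 that was not called (edgeR adjusted p = 0.19), with 0.0% of genes called. Only 2 mice had macrophage sums of both regions, and the core was higher in 2 of 2 (means 1065 and 117 CPM).

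In Pre-MET lungs, which ask how a distant tumor changes the lung before metastases are seen, 2 activating receptors were lower in monocytes. Fcgr1 was 137, 90.3 and 170.2 CPM in the 3 Pre-MET samples and 251, 333 and 388 CPM in the 3 Normal samples. It fell by 1.31 on the log2 scale (SE 0.29, edgeR adjusted p = 0.017). Fcgr4 was 100.1, 159 and 209.9 CPM against 412, 271 and 388 CPM, and fell by 1.21 (SE 0.29, edgeR adjusted p = 0.024). Fcgr2b (334 against 411 CPM), Fcgr3 (687 against 887 CPM) and Fcer1g (3605 against 4514 CPM) were not called. All Normal plates came from 1 sequencing batch and the Pre-MET plates from 2 others, so batch and group cannot be told apart. With DESeq2 both calls were lost (adjusted p 0.051 and 0.079). The call of Fcgr1 held only without Normal mouse 1 or Pre-MET mouse 10 and was lost without any other single sample (edgeR adjusted p 0.074 to 0.091), and that of Fcgr4 held only without Normal mouse 2 or Pre-MET mouse 10 (0.089 to 0.144 without the others).

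The makeup of these monocytes differed strongly. Mon_Ace, the label with the most Fcgr4, was 59.0% of Normal and 22.6% of Pre-MET monocytes, and Mon_Fn1 23.8% and 69.6%. Levels were again computed with labels at their overall means, weighted by their share of the monocyte UMIs rather than of cells. This gave 273 CPM of Fcgr4 in Normal and 142 CPM in Pre-MET, against 357 and 156 CPM measured. It gave nearly equal Fcgr1 (293 and 289 CPM, against 324 and 132 CPM measured). Within Mon_Fn1, Fcgr1 was 146 ± 62.2 against 365 ± 229 CPM (log2 -1.39 ± 0.50, edgeR adjusted p = 0.26, with 0.336% of genes called), and within Mon_Ace, Fcgr4 was 538 ± 223 against 623 ± 108 CPM (-0.23 ± 0.34, edgeR adjusted p = 0.89, with 0.371% called, and 0.02 without Pre-MET mouse 8). Neutrophil markers summed to 1062 to 1997 CPM in Pre-MET and 274.9 to 665 CPM in Normal monocytes, and macrophage markers to 907 to 952 CPM and 3437 to 4575 CPM, with 1 called higher of the 5 neutrophil markers and 1 called lower of the 5 macrophage markers; their part in the result was not tested.

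**Figure D4:**
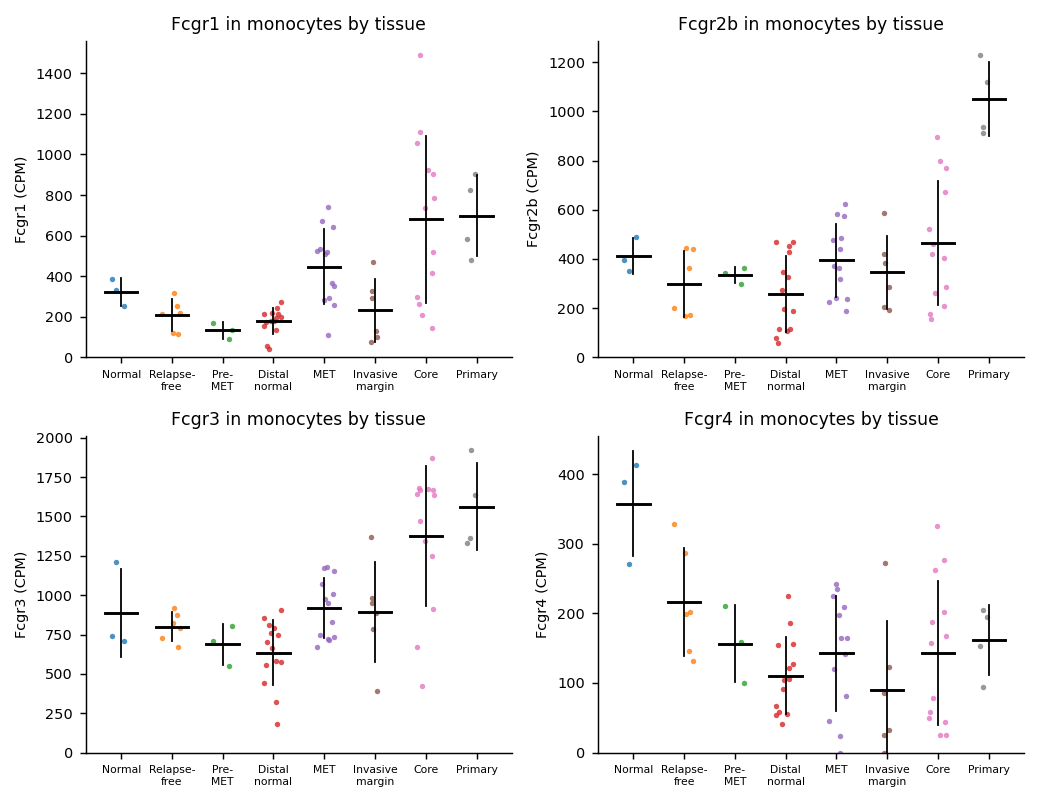
CPM (linear axes) of the 4 receptor genes in summed monocytes, 1 point per mouse and tissue; horizontal bars are means and vertical bars SD. Fcgr1 was highest in Primary (699 CPM) and Core (681 CPM) and lowest in Pre-MET (132 CPM), Fcgr2b was highest in Primary (1049 CPM), and Fcgr4 in Normal lung (357 CPM).

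Over all 8 tissues, monocyte Fcgr1 ran from Primary (699 CPM) and MET Core (681) through MET (447), Normal (324), margin (233), Relapse-free (206) and Distal normal tissue (177) to Pre-MET (132 CPM), and no neighbours in this order differed beyond their larger SD. Fcgr2b was set apart in Primary, at 1049 ± 150.3 CPM (n = 4) with the next tissue, MET Core, at 463 ± 251 CPM (n = 13). Fcgr3 was likewise high in Primary (1562 ± 278 CPM) and MET Core (1377 ± 446 CPM), and the step down to MET (917 ± 191 CPM) exceeded the larger SD. The order of Fcgr4 was another, led by Normal lung (357 ± 75.4 CPM, n = 3) and Relapse-free lung (216 ± 77.6 CPM, n = 6), where Mon_Ace made up 59.0% and 38.3% of monocytes.

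The comparison of MET Core with Primary asks how the immune cells of the metastasis differ from those of the tumor of origin. Mac_Cd81 macrophages made up 80.9% of macrophages in Primary, and 2 activating receptors were lower in those of MET Core. Fcgr1 was 113, 396 and 436 CPM in the 3 core sums and 810.5, 1308, 737 and 1025 CPM in the 4 Primary sums, and fell by 1.76 (SE 0.47, edgeR adjusted p = 0.027). Fcgr4 was 453, 106 and 0 CPM against 528, 481, 653 and 978 CPM, and fell by 2.55 (SE 0.65, edgeR adjusted p = 0.023). The core sums were small, with 22 UMIs of Fcgr1 and 8 of Fcgr4 in all. Fcgr2b (745 against 1567 CPM, edgeR adjusted p = 0.072), Fcer1g (4487 against 6084 CPM, adjusted p = 0.166) and Fcgr3 (2077 against 2026 CPM, adjusted p = 0.71) were not called.

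The cells compared under this label differed widely in other ways. The median log2 difference of all genes was -0.31, and cells held 882 to 1721 UMIs on average in core sums and 5090 to 13441 in Primary sums. The 5 macrophage markers summed to 6035 to 7707 CPM in the core and 23374 to 27703 CPM in Primary, 5 of 5 called lower, while neutrophil markers summed to 475 to 1020.1 CPM and 31.9 to 150.3 CPM, with Cxcr2 at 0. The gates differed and no sequencing batch held both groups. Their part in the result was not tested, and batch and group cannot be told apart. The call of Fcgr1 was lost without Primary mouse 38 or 9 or core mouse 24 (edgeR adjusted p 0.064, 0.074 and 0.087), and that of Fcgr4 without Primary mouse 10 or 38 or core mouse 26 or 30 (0.062, 0.068, 0.064 and 0.053).

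With all macrophage labels summed, Fcgr4 fell in the core by 2.22 (SE 0.39, edgeR adjusted p = 0.0014). It ran from 0 through a median of 109.6 to 249 CPM in 10 core sums and from 446 through 531 to 890.1 CPM in 4 Primary sums, with means of 115 ± 73.9 and 599.8 ± 208 CPM. In the 1 batch with both tissues, 2 core sums averaged 216 CPM and 1 Primary sum held 446 CPM. The shares of the labels in the macrophage UMIs, with labels at their overall means, gave 175 CPM in the core and 392 CPM in Primary. The overall mean of Mac_Cd81, 423 CPM, included its 4 Primary sums and was 234 CPM without them. The computed value of Primary thus partly holds the level of Primary itself. Fcgr1 did not follow (875 against 942 CPM, -0.13 ± 0.40, edgeR adjusted p = 0.93, turning to 0.03 with at least 20 cells a sum and 0.01 without Primary mouse 9). Core macrophages were 56.4% Mac_Isg20, the label with the most Fcgr1, whose sums came from MET and MET Core only. Macrophage markers summed to 4017 to 24130.0 CPM in the core and 21767 to 25720 CPM in Primary, with 4 of 5 called lower. Fcgr2b was 729 ± 310 against 1530.1 ± 451 CPM in macrophages (-1.07 ± 0.34, edgeR adjusted p = 0.066) and 463 ± 251 against 1049 ± 150.3 CPM in monocytes (-1.17 ± 0.34, adjusted p = 0.073, with 1.47% of genes called), and was not called in either.

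**Figure D5:**
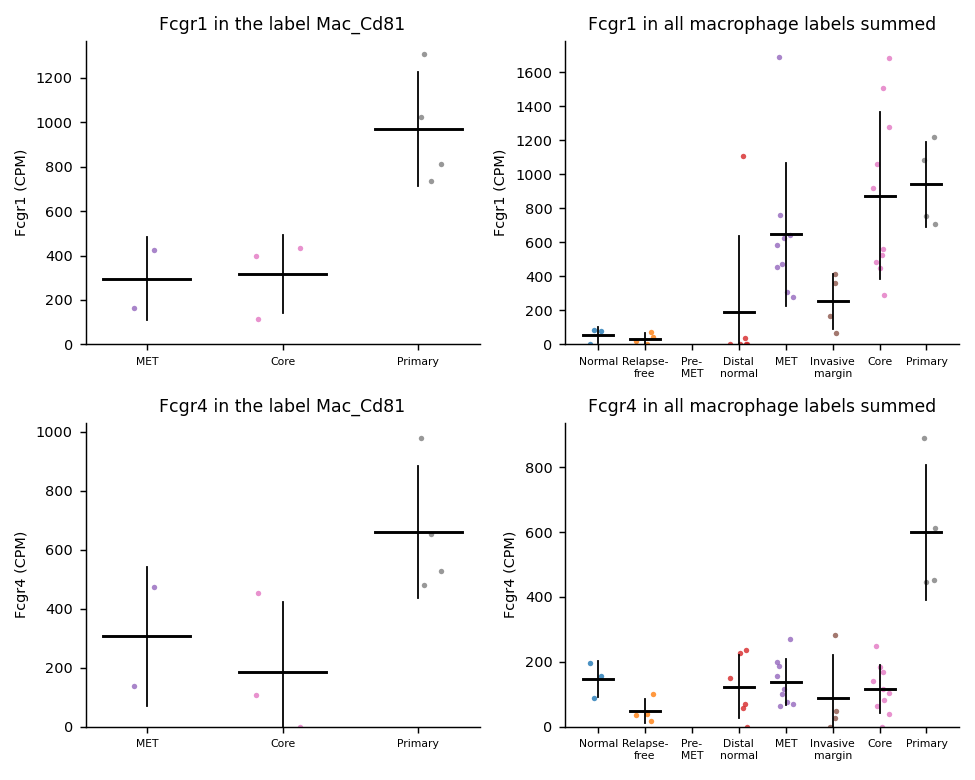
CPM (linear axes) of Fcgr1 (top) and Fcgr4 (bottom) by tissue in sums of the label Mac_Cd81 (left) and of all macrophage labels (right; no sum in Pre-MET); points are mice, horizontal bars means and vertical bars SD. Fcgr4 was at 446 to 890.1 CPM in Primary macrophages and at most 249 CPM in the core, and the Fcgr1 outlier of Distal normal tissue (1106 CPM) is mouse 17.

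In the remaining comparisons none of the 5 genes was called. Within labels the shares of all genes called were 1.15% in DC_cDC2, 0.59% in Mon_Fn1 and 1.24% in Mon_Thbs1 of MET Core against Primary and 1.51% in Neut_Ptgs2 of Pre-MET against Normal, and 0.0% in the 11 others. Within lineages they were 0.555% in dendritic cells of MET Core against Primary, 0.463% in neutrophils of MET Core against margin and 1.06% in neutrophils of Pre-MET against Normal, and 0.0% in the 8 others, monocytes and macrophages of MET Core against margin among them. At an unadjusted p under 0.05, 1 of 8 tests was found within labels for MET Core against margin, 1 of 14 for MET against Distal normal tissue and 3 of 15 for Pre-MET against Normal, and DESeq2 called none of the 5 genes in these. Of all genes, 165 of 1618 in Mon_Ace and 448 of 3273 in Mon_Fn1 had such a p for Pre-MET. There it was 43 of 496 in Mon_MHC-II, 141 of 1518 in NK_Ncr1 and 12 of 199 in Neut_Ptgs2. For MET Core against margin it was 19 of 1026 in Mac_Gpnmb, 26 of 538 in Mon_Fn1 and 3 of 385 in NK_Ncr1. MET against Distal normal tissue ran from 17 of 1292 in Mon_Fn1 to 20 of 485 in Neut_Ptgs2. Within lineages and without the block, MET Core against margin had 4 of 12 tests at such a p and no call by edgeR or DESeq2, while the fit blocked by mouse called Fcgr1 and Fcgr2b in monocytes. Of all genes, 178 of 1743 in macrophages and 84 of 1025 in monocytes had such a p without the block. In neutrophils it was 28 of 216 and in NK cells 0 of 425. Fcer1g of NK cells showed 3857 ± 1783 CPM in Distal normal tissue (n = 7) and 3811 ± 1040 CPM in MET (n = 8), a log2 difference of -0.10 ± 0.28. In neutrophils, Fcgr3 was 1214 ± 364 CPM in Distal normal tissue (n = 9), 1366 ± 530 CPM in MET (n = 9), 1636 ± 899 CPM in the margin (n = 5) and 2469 ± 961 CPM in the core (n = 6), and the core and margin overlapped (0.59 ± 0.34, edgeR adjusted p = 0.56). In the 4 mice with both regions, neutrophil Fcgr3 was higher in the core in 4 of 4 (1954, 1814, 4358 and 1890.2 CPM against 1790, 1013, 3122 and 1343 CPM), and was not called in the fit blocked by mouse (0.54 ± 0.31, edgeR adjusted p = 0.64).

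Genes that work with these receptors were read from 5 lists, and their medians stand beside that of all genes. Of the 7 receptors that pair with the Fcer1g chain, 3 were tested in monocytes of MET against Distal normal tissue and 2 rose, in a comparison with 1.48% of genes called: Clec4n, the Dectin-2 gene, from 91.7 ± 83.7 to 318 ± 197 CPM (2.10 ± 0.37, edgeR adjusted p = 0.00066) and Clec4d from 55.0 ± 36.1 to 183 ± 117 CPM (1.75 ± 0.32, edgeR adjusted p = 0.00081). The median of the 3 was 1.75, beside 0.00 over all genes. In macrophages of the same tissues, with 9.54% of genes called, Clec4n rose from 423 ± 170 to 1381 ± 376 CPM (1.88 ± 0.32, edgeR adjusted p = 0.0011), and so did Itgam, the integrin of the complement receptor, from 52.0 ± 67.5 to 246 ± 136 CPM (2.12 ± 0.65, adjusted p = 0.037). In macrophages of MET Core against Primary, with 4.53% called, Clec4d rose from 149 ± 75.5 to 784 ± 474 CPM (2.37 ± 0.51, edgeR adjusted p = 0.0065). The labels whose shares differed between MET and Distal normal tissue also differed in these genes. Clec4n was at 927 CPM in Mon_Thbs1 against 90.6 CPM in Mon_Fn1 and at 1990 CPM in Mac_Isg20 against 459 CPM in Mac_Cd9, and Clec4d at 501 CPM in Mon_Thbs1 against 110.2 CPM in Mon_Fn1. Between MET Core and Primary, Mac_Isg20 made up 56.4% and 14.6% of macrophages and Mac_Cd81 19.7% and 80.9%, and Clec4d was at 985 CPM in Mac_Isg20 and 129 CPM in Mac_Cd81. The part of label shares in these calls was not tested. Both genes were highest in Neut_PMN-MDSC, at 2525 CPM for Clec4n and 2212 CPM for Clec4d (3157 and 2554 CPM without the sum of mouse 7).

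The 14 signaling genes downstream (such as Syk and Lyn) and the 9 inhibitory genes (such as Inpp5d and Ptpn6) had none called in either direction in the monocyte and macrophage lineages. Their medians in monocytes of MET against Distal normal tissue were -0.07 over 11 tested and -0.14 over 8. In Mac_Cd81 of MET Core against Primary, the medians were -1.41 over 10 signaling genes and -1.64 over 9 inhibitory genes, beside -0.31 over all genes. There Ptpn6, a phosphatase of inhibitory receptors, fell by 1.75 (SE 0.52, edgeR adjusted p = 0.044), and Cd300a, an inhibitory receptor, was called lower with 2 UMIs in the core (Primary over core 7.31-fold, exact 95% counting interval 2.01 to 60.5). Fgr, a Src-family kinase, and the Fc-binding genes Fcrls and Fcgrt were called lower with no UMI in the core, and were at least 3.31-fold, 5.19-fold and 5.68-fold lower against a floor of 3 UMIs over the group. The 7 oxidase and integrin genes had no further call.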

How the data were processed

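SPID-seq, a plate-based single-cell RNA-seq method, was run on the 148 plates of sorted cells. The authors mapped reads to mm10 with HISAT 0.1.6 (after bcl2fastq 2.15.0.4, per the submitters' processing notes), excluded reads with several mapping positions, merged genes sharing exon positions, condensed reads to UMIs, kept cells of at least 500 UMIs and labelled them from metacells; the deposited values were UMI counts per gene and well, not normalized. Of 24020 annotated wells, 595 were dropped, which left 23425 immune cells.

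Counts were summed per mouse, tissue and label (at least 10 cells) with Python 3.11.15, numpy 2.4.6 and pandas 2.3.3, and scaled to CPM. Tissues were compared with edgeR 4.0.16 (R 4.3.3; TMM, filterByExpr, two-sided quasi-likelihood F test, Benjamini-Hochberg), where both groups held 3 sums, and the code was tested on simulated data. DESeq2 1.42.0 was an alternative. Replicates are mouse-by-tissue sums. Sections of 1 mouse pair by the mouse number in the labels: deviations from the group means correlated at 0.14 to 0.47 on average within mice and -0.15 to -0.02 between mice. Taking deviations from the means of the same mice pulls the values between mice below 0, so they are no independent contrast. Named genes were the 5 genes, the 3 genes most like each across labels, and up to 4 called genes per list and comparison with the smallest adjusted p. 1 gene that this rule names is not reported here. The genes and lists were chosen with earlier results of these data known. Fits leaving out 1 mouse of a pair or 1 sum of a larger group were chosen after seeing the data. Intervals and floors cover counting error only.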

Additional observations from a re-analysis of the deposited data

Results flagged for a closer look

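Of 54 groups of 4 to 10 sums, 4 held a sum that lay far from the rest of its group, and chance alone sets apart about 1 in 20 groups. Fcgr1 in DC_cDC2 of Primary reached 232 CPM in 1 of 4 sums, against 113 to 128 CPM in the others. Fcgr3 in Mon_Ace of MET reached 1370.2 CPM in 1 of 7 sums, against 347 to 569 CPM. Fcgr3 in Mon_Fn1 of the margin was 412 CPM in 1 of 5 sums, below 856 to 1014 CPM. Fcgr4 in Mon_Thbs1 of MET Core reached 419 CPM in 1 of 8 sums, against 0 to 116 CPM.

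In 3 pairs of comparisons, the tissues did not overlap in either cell type and the 2 fold changes had opposite signs. The pairs were picked for this, from groups of 3 or 4 sums. How often other genes form such pairs was not counted, and the differences were not tested. Between MET Core and Primary, the log2 fold change of Fcgr1 was 1.31 in DC_cDC2 and -1.76 in Mac_Cd81, a difference of 3.07, and that of Fcer1g was 0.61 and -0.74, a difference of 1.36. With all dendritic cell labels summed, both genes were lower in the core in the 1 batch with both tissues. There the fold change of Fcer1g turned from 0.49 over all sums to -0.21 with DESeq2. Between Pre-MET and Normal, the log2 fold change of Fcer1g was 0.78 in neutrophils and -0.36 in monocytes, a difference of 1.14.

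Outside the labels compared, T_CD8_Gzma cells (8 sums) held 1181 ± 827 CPM of Fcer1g (69.7 to 2068) and 95.3 ± 118 CPM of Fcgr2b (0 to 352). These means lay above those of T_CD4_Lef1 cells, at 155 ± 159 CPM (0 to 844) and 7.5 ± 11.9 CPM (0 to 44.6). The ranges overlapped for both genes. Markers of NK cells summed to 1109 CPM (633 to 1995) in T_CD8_Gzma and 99.9 CPM (0 to 653) in T_CD4_Lef1. Those of macrophages summed to 269 CPM (46.5 to 1176) and 76.99 CPM (0 to 362), and those of monocytes to 1614 CPM (564 to 2398) and 569 CPM (0 to 2218). Their part in these levels was not tested.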

How the results depend on the processing

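The mean CPM of each gene in its highest label moved by less than 1 SD under every alternative run. Leaving out the sums of Primary, an alternative chosen after seeing the data, moved the first place of Fcgr2b from Mac_Cd81 to Mac_Isg20 and that of Fcer1g from Mac_Cd81 to Mon_Thbs1. The fold changes called here kept their direction under every alternative run, but of all those tested for the 5 genes, called or not, the sign differed in 21 of 105 with DESeq2, 11 of 105 without a filter on low counts, 12 of 85 with cells of at least 1000 UMIs, 11 of 77 with at least 20 cells a sum, 2 of 105 with RLE size factors, 3 of 36 with the block and 28 of 717 fits without 1 sum, and 0 of these were called in either fit. Among them, Fcgr3 in neutrophils of MET against Distal normal tissue turned from 0.09 to -0.43 with DESeq2. Of the 5 genes, the number of calls within labels for MET Core against Primary was 2, became 5 with DESeq2 and ranged from 0 to 2 when 1 sum was left out. Within lineages, that comparison gave 1 call, 3 with DESeq2, 3 without a filter on low counts and 2 with at least 20 cells a sum. MET Core against margin gave 0 calls, 1 without the filter and 2 with the mouse as a replicate block. MET against Distal normal tissue gave 1 call, 4 with DESeq2, 2 without the filter, 2 with cells of at least 1000 UMIs and 5 with the block, and 1 to 2 when 1 sum was left out. Pre-MET against Normal gave 2 calls, 0 with DESeq2, 1 with cells of at least 1000 UMIs and 0 to 2 when 1 sum was left out. DESeq2 also moved the median of all genes, by -1.02 in Mac_Cd81, -0.50 in macrophages and -0.71 in monocytes of MET Core against Primary, 0.94 in macrophages of MET against Distal normal tissue and 0.24 in monocytes of Pre-MET against Normal (log2). From edgeR to DESeq2, all calls went from 129 (31.8% higher) to 678 (2.1%) in Mac_Cd81, from 98 (63.3%) to 309 (18.8%) in macrophages and from 27 (63%) to 349 (6.6%) in monocytes of MET Core against Primary, from 123 (72.4%) to 1213 (98.1%) in macrophages of MET against Distal normal tissue and from 214 (53.3%) to 261 (78.5%) in monocytes of Pre-MET against Normal. In dendritic cells of MET Core against Primary they went from 6 to 271. Without the filter, all calls in that comparison were 258 in macrophages, 320 in monocytes and 67 in dendritic cells. They were 461 in macrophages and 322 in monocytes of MET against Distal normal tissue, and 91 in monocytes of MET Core against margin. The causes of these changes were not tested. Shares of all genes called in these alternative settings are not given. The fit of Mac_Cd81 could not be made with at least 20 cells a sum or cells of at least 1000 UMIs. Depth limits Fcgr1 and Fcgr4 in small sums, where 1 UMI stands for up to 175 CPM.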
